A study of Mus musculus with 18 samples.

Results

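The genes described here encode mitochondrial ribosomal proteins. They were taken as every gene of the count table that is annotated as protein coding and has a symbol starting with *Mrpl* or *Mrps* and a digit. This gave 78 of 51912 genes, of which 49 are named for the large (*Mrpl*) and 29 for the small (*Mrps*) subunit, spread over 17 chromosomes. Mitochondrial ribosomes translate the few mRNAs of the mitochondrial genome, whose products are all subunits of the oxidative phosphorylation complexes. Their rRNAs come from mitochondrial DNA, but every protein subunit is encoded in the nucleus, made by cytosolic ribosomes and imported. Some subunits have counterparts in all ribosomes, some only in those of bacteria, and the rest are found in mitochondria alone. Symbols and structure do not always match. *Mrps18a* and *Mrps30* encode proteins of the large subunit, and the product of *Mrps36* belongs to the oxoglutarate dehydrogenase complex. Conversely *Dap3*, *Chchd1*, *Aurkaip1* and *Ptcd3* of the small and *Gadd45gip1* of the large subunit carry other symbols.

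The study asked how ethanol alters the RNA of astrocytes and the part of it that is bound to ribosomes. Primary cultures came from the cortices of mice of both sexes in equal numbers, pooled at postnatal day 0, all hemizygous for Tg(Aldh1l1-EGFP/Rpl10a)JD130Htz/J. They were offspring of transgenic mice on a B6;FVB background crossed to C57BL/6J. In these mice the *Aldh1l1* promoter, active in astrocytes, drives the cytosolic ribosomal protein RPL10A fused to EGFP, so that translating ribosome affinity purification (TRAP) with antibodies to GFP pulls down ribosomes of these cells. Cells grew for 14 days, were replated for 6 days, had their serum removed for 24 h and then received 50 mM ethanol or control medium for 24 h. Control and ethanol groups therefore share genotype, age and serum-free medium and differ in ethanol. The pulled-down RNA (IP) was sequenced from 6 control and 6 ethanol dishes, numbered 1 to 6 in each treatment, and total RNA of the lysate before the pull-down (input) from dishes 4 to 6 of each. A replicate is a dish of 1 culture system, and p-values measure the spread between these dishes.

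The libraries held 74239854 to 132810705 read pairs on genes. Input control libraries had 85866937 to 94032838, input ethanol 74706940 to 85029665, IP control 75163647 to 87622033 and IP ethanol 74239854 to 132810705 pairs. Levels are given as counts-per-million values (CPM), scaled by TMM (trimmed mean of M values) and, where genes are compared with each other, as CPM per kb of exon. Of the 78 genes, 77 had a mean of at least 5 CPM and were tested together with all other genes that had 10 or more read pairs over the 18 libraries. *Mrpl53* (ENSMUSG00000030037) was listed at 0 in all 18 libraries. In the annotation, 88.0% of its exon bases also belong to *Gm42688* on the same strand, which itself averaged 0.351 CPM, and pairs on bases of 2 genes were not counted for either. *Gm42688* and, further on, *Gm16755*, *Gm16279*, *Gm43511*, *Actl6a*, *Ndufb5*, *Slc5a3*, *Mrps11*, *Mrps14*, *Mrps16*, *Mrpl38* and *Mrpl39* were chosen after their values were seen. Between dishes of a group the members were tight. Their median coefficient of variation was 2.27% among control and 2.62% among ethanol libraries of the input, and 3.62% and 4.34% among those of the IP.

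Astrocyte markers were high in sum in these cultures, though *S100b* was at only 3.53, 3.42 and 4.52 CPM in input control. The 10 markers summed to 1555 ± 35.2 CPM (SD, n = 3) in input control and 2428 ± 35.9 (SD, n = 6) in IP control. *Aldh1l1* itself measured 186, 188 and 193 CPM in the input control libraries and 367, 384 and 395 CPM as the lowest, median and highest of the IP control libraries. No IP control library came near the input range. Markers of other cells were present too. The fibroblast markers summed to 2074 ± 30.6 CPM in input control (SD, n = 3), above the astrocyte sum. In IP control they had 1714 ± 13.0 (SD, n = 6). *Fn1* alone averaged 1641 CPM over the 18 libraries and made up most of the fibroblast sum. The endothelial and mural markers summed to 1341 ± 35.2 CPM in input control and 1705 ± 55.8 in IP control. Most of that was *Acta2*, with a mean of 1215 CPM over the 18 libraries. Such sums therefore do not measure the share of a cell type. The 10 microglial markers summed to 122 ± 0.90 CPM in input control (SD, n = 3) and 30.7 ± 1.34 in IP control (SD, n = 6), with *Cd68* the most abundant at a mean of 24.7 CPM and none at 0.

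Levels of the mitoribosomal genes differed widely among themselves. In IP control the 77 genes ranged from 2.32 to 91.6 CPM per kb of exon, a ratio of 39.4, with a median of 12.6. Of these, 51 lay above 8.36 CPM per kb, the median of all protein-coding genes of at least 5 CPM. The highest level belonged to *Mrps6* (ENSMUSG00000039680), a bacterial-type protein of the small subunit, at 91.6 ± 2.96 CPM per kb (SD, n = 6). *Mrpl34*, a small bacterial-type protein of the large subunit, followed at 61.7 ± 2.71, and *Mrps21*, of bacterial type in the small subunit, at 57.1 ± 3.02 CPM per kb (SD, n = 6). *Mrps6* was thus set apart from the next gene by many times the spread between dishes, whereas *Mrpl34* and *Mrps21* differed by less than the sum of their SDs. At the other end were *Mrpl33*, another bacterial-type large subunit protein, at 2.32 ± 0.076, *Mrps30*, a mitochondria-specific protein of the large subunit, at 3.14 ± 0.17, and *Mrpl47*, the counterpart of a universal large subunit protein, at 3.38 ± 0.090 CPM per kb (SD, n = 6). The place of a gene in this order depended on the length and on the strand rule. With the longest transcript in place of all exon bases *Mrpl33* had 6.21 and *Mrps30* 5.50 CPM per kb and neither was among the 3 lowest, *Mrpl34* moved from rank 2 to rank 5, and *Mrps6*, at 126 CPM per kb, was again the highest. With stranded counts, chosen after seeing the data, *Mrps30* (4.46 CPM per kb) and *Mrpl47* (3.78) were not among the 3 lowest, and *Mrps6*, *Mrpl34* and *Mrps21* were the 3 highest.

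*Mrps6* stood above *Mrpl34* in both control groups and in IP ethanol. In input control *Mrps6* measured 75.1 ± 1.49 and *Mrpl34* 66.3 ± 0.44 CPM per kb (SD, n = 3). In IP ethanol they had 73.8 and 60.2 CPM per kb. In input ethanol *Mrpl34* stood above *Mrps6*, at 70.9 ± 1.24 against 62.8 ± 0.36 CPM per kb (SD, n = 3). Large subunit genes were more abundant than small subunit genes by their medians. In IP control the median was 16.5 CPM per kb over 48 *Mrpl* and 8.57 over 29 *Mrps* genes. The ratio of the 2 medians, taken in each library, averaged 1.90 ± 0.049 in IP control and 1.90 ± 0.032 in IP ethanol (SD, n = 6), and 1.98 ± 0.024 in input control and 1.96 ± 0.10 in input ethanol (SD, n = 3). The ratio depended on the gene models and on the strand rule. With the longest transcript it averaged 1.46 ± 0.031 in IP control and 1.61 ± 0.045 in IP ethanol (SD, n = 6), without overlap, and had a median of 1.61 in input control and 1.75 in input ethanol, where the groups overlapped. With stranded counts it was 1.62 to 1.71 in input control and 1.78 to 1.80 in input ethanol, again apart, and averaged 1.74 ± 0.064 in IP control and 1.79 ± 0.082 in IP ethanol (SD, n = 6). With genes assigned by structure the mean in IP control was 1.80.

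Comparing IP with input asks which transcripts were over- or underrepresented on the tagged ribosomes. The mitoribosomal genes moved in both directions and by little. Of 77 genes, 22 were higher in IP and 30 lower (adjusted p under 0.05, edgeR), and the median log2 fold change was -0.02. Over all 24495 genes tested, 25.2% were higher and 25.8% lower with a median of -0.03, and of the protein-coding genes of at least 5 CPM 46.8% were higher and 31.7% lower with a median of 0.05. Scaling by total counts shifted the split of the members to 15 higher and 43 lower, and that of all genes to 20.8% higher and 30.2% lower. By symbol, 15 of 48 *Mrpl* genes were higher and 17 lower (median -0.02), against 7 and 13 of 29 *Mrps* genes (median -0.04). Among large subunit proteins, universal ones had 7 higher and 4 lower of 16, bacterial-type ones 2 and 6 of 14, and mitochondria-specific ones 6 and 8 of 20. The small subunit had 3 and 6 of 11 universal, 1 and 2 of 5 bacterial-type and 3 and 3 of 10 mitochondria-specific genes.

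The largest decrease was that of *Mrpl30* (ENSMUSG00000026087, chr1:37890477-37898535), the counterpart of a universal large subunit protein. It measured 64.7, 62.2 and 62.5 CPM in the input control libraries and 40.2, 42.3 and 45.0 CPM as the lowest, median and highest in IP control. The highest IP library lay far below the lowest input library, and over all 18 libraries IP differed by -0.64 ± 0.03 on the log2 scale (SE, edgeR adjusted p = 8.07e-33). *Mrps24*, a universal-type protein of the small subunit, measured 36.5, 37.0 and 36.6 CPM in input control and 23.6, 25.6 and 27.8 CPM in IP control, which gave -0.50 ± 0.03 on the log2 scale (SE, adjusted p = 1.7e-23). *Mrpl52*, a mitochondria-specific protein of the large subunit, measured 53.1, 51.0 and 54.0 CPM in input control and 35.5, 38.8 and 42.0 CPM in IP control (-0.46 ± 0.03, adjusted p = 4.23e-14). For these genes too, input and IP control libraries did not overlap. Of the exon bases of *Mrps24*, 15.4% are shared with *Urgcp* on the same strand.

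The largest increases were smaller. *Mrpl41*, a mitochondria-specific protein of the large subunit, measured 27.3, 27.6 and 27.6 CPM in input control and 31.3, 34.3 and 35.8 CPM in IP control (log2 fold change 0.30 ± 0.03, adjusted p = 1.13e-14). *Mrps31*, a mitochondria-specific small subunit protein, measured 23.9, 24.3 and 22.8 CPM in input control and 28.0, 29.1 and 30.1 CPM in IP control (0.29 ± 0.03, adjusted p = 2.73e-14). *Mrpl46*, a mitochondria-specific large subunit protein, measured 16.7, 17.2 and 17.1 CPM in input control and 19.8, 20.7 and 21.9 CPM in IP control (0.27 ± 0.03, adjusted p = 1.44e-11). In each case all IP control libraries were above all input control libraries. *Mrpl46* overlaps *Mrps11* head to head on chromosome 7, with 12.2% of its exon bases on the opposite strand of that gene. *Mrps11* had a log2 fold change of 0.00 ± 0.04, so the neighbours differed in their values. When tested against a fold change of 1.2, none of the 77 genes was higher in IP and 7 were lower. The shares over all genes given for IP against input are not from that test.

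**Figure D1:**
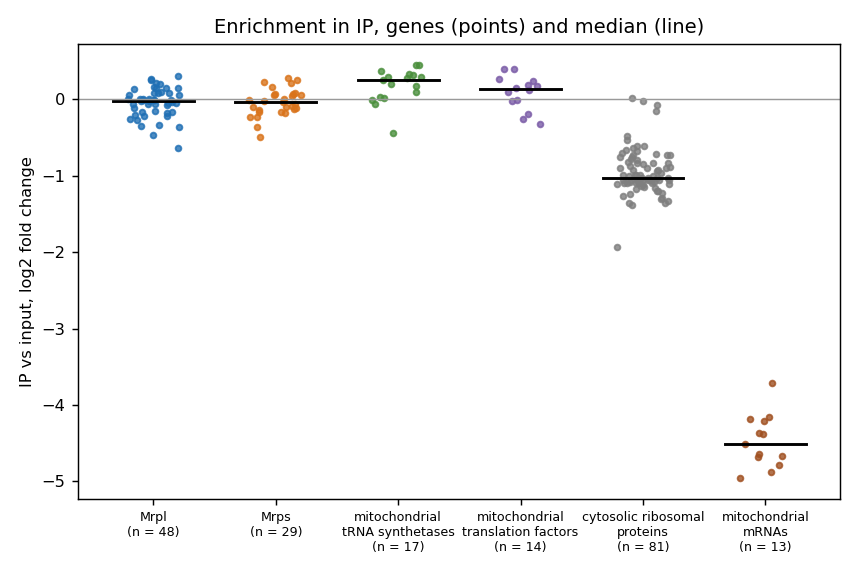
Log2 fold change of IP over input (y axis) for each gene (points) of 6 groups, with the group median as a line. The *Mrpl* and *Mrps* genes lie around 0 (medians -0.02 and -0.04), mitochondrial tRNA synthetases have a median of 0.25 and translation factors of 0.14, cytosolic ribosomal protein genes of -1.03 and mitochondrially encoded mRNAs of -4.51.

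Genes that work with the mitoribosome were measured beside its subunits. For these and the following lists, the shares over all genes tested were 25.2% higher and 25.8% lower in IP. Over the protein-coding genes of at least 5 CPM they were 46.8% and 31.7%. Of 24 factors of mitoribosome assembly, 10 were higher and 3 lower (median 0.06), led by the RNA helicase gene *Dhx30* (0.43 ± 0.02) and *Eral1* (0.29 ± 0.03), a GTPase that binds the small subunit rRNA; with total counts the split was 7 and 6. Of 14 mitochondrial translation factors tested of 15 listed, 9 were higher and 3 lower (median 0.14), among them *Lrpprc*, which stabilises mitochondrial mRNAs (0.39 ± 0.02), and the elongation factor gene *Gfm1* (0.39 ± 0.02). Of 17 mitochondrial tRNA synthetases, 11 were higher and 1 lower (median 0.25), with *Lars2* at 0.45 ± 0.12. Of 6 genes of mitochondrial transcription, the RNA polymerase gene *Polrmt* was higher (0.46 ± 0.03) and 2 were lower, among them *Mterf1a* (-0.30 ± 0.09). The regulators of mitochondrial biogenesis had 3 higher and 1 lower of 8, with *Ppargc1a* at 0.47 ± 0.03 and *Ppargc1b*, at a mean of only 0.347 CPM, at -0.55 ± 0.19; with total counts the split was 2 and 2.

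Cytosolic ribosomal protein genes and mitochondrial mRNAs had lower medians than the mitoribosomal genes. Of 81 cytosolic ribosomal protein genes tested, 77 were lower in IP and none higher, with a median of -1.03. *Rps12* had -1.38 ± 0.02 and the very low *Rpl39l*, at 0.0574 CPM, -1.94 ± 0.48. *Rpl10a*, the gene whose tagged copy marks the ribosomes, measured -0.53 ± 0.02. Reads of the tagged and the native copy were not told apart. All 13 mRNAs of the mitochondrial genome were lower in IP (median -4.51), for example *mt-Nd1* (-4.87 ± 0.07) and *mt-Atp6* (-4.95 ± 0.10). Among the subunits with other symbols *Ptcd3* (0.13 ± 0.03) and *Dap3* (0.11 ± 0.02) were higher in IP, *Chchd1* (-0.16 ± 0.03) was lower, and *Aurkaip1* (0.02 ± 0.02) and *Gadd45gip1* (0.03 ± 0.04) were not called.

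Cell type markers in IP against input were as follows. Of 10 astrocyte markers, 9 were higher and 1 lower (median 0.61), with *Aldh1l1* at 1.05 ± 0.02 and *Slc1a2* at 0.83 ± 0.03. Microglial markers had none higher and 9 lower of 10 (median -2.46; *Ptprc* -2.80 ± 0.08, *Itgam* -2.74 ± 0.07). Fibroblast markers had 2 higher and 8 lower (median -1.35; *Vtn* -2.01 ± 0.13, *Dcn* -1.87 ± 0.05). Neuronal markers had 5 higher and 2 lower of 10, oligodendrocyte lineage markers 3 and 5 of 10, and endothelial and mural markers 4 and 3 of 9. Of 10 proliferation genes, 5 were higher and 1 lower. How far the mix of cells in input set the values of the mitoribosomal genes was not tested.

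The main question of the study was what ethanol does in each fraction. In IP, ethanol lowered many of the mitoribosomal genes. Of 77 genes, 39 fell and 0 rose (adjusted p under 0.05, edgeR; DESeq2 gave 43 and 0), where 9.48% of all genes tested fell and 11.9% rose. Among protein-coding genes of at least 5 CPM, 17.3% fell. The median log2 fold change of the members was -0.09, against 0.01 over all genes tested and 0.01 over those protein-coding genes. With trends of GC content and length removed, 28 members fell and 2 rose, with a median of -0.05. The shares over all genes given above belong to the fit without this removal. Of the 21 members named under the rules given further on, 4 lost their call with the trends removed. All 6 ethanol libraries lay below all 6 control libraries for 20 members, a pattern that 4.87% of all genes showed. The changes were small, and when tested against a fold change of 1.2 only *Mrpl54* was called. The shares over all genes are not from that test. With each IP library left out in turn, 29 to 40 members fell, the fewest without ethanol library 5. Between dishes, fewer cells of a type and less RNA per cell cannot be told apart in bulk RNA.

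Summed over the members, the level in IP control was 2668, 2785 and 2838 CPM as the lowest, median and highest, and in IP ethanol 2453, 2583 and 2627 CPM. Every ethanol library was below every control library, and the mean changed by -6.87%. For the *Mrpl* genes the sum changed by -6.34% and for the *Mrps* genes by -7.90%. The cytosolic ribosomal protein genes changed by -6.30% in their sum. Of 48 *Mrpl* genes, 25 fell, and of 29 *Mrps* genes, 14 fell, with a median of -0.09 for each. The large subunit median was above that of the small subunit by 0.01. Assigned by structure, 25 of 50 large and 14 of 26 small subunit genes fell.

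By type of protein, all 5 bacterial-type genes of the small subunit fell with ethanol in IP. These are *Mrps6*, *Mrps16*, *Mrps18c*, *Mrps21* and *Mrps28*. Without IP ethanol library 5 the adjusted p of *Mrps18c* was 0.0550 and that of *Mrps21* 0.0834, and without IP control library 4 they were 0.0642 and 0.0727. *Mrps18c* also lost its call without IP ethanol library 3 (0.0575), and *Mrps21* without IP control library 1 (0.0581) or 3 (0.0687). Of the other small subunit genes, 6 of 11 universal and 3 of 10 mitochondria-specific ones fell. In the large subunit 6 of 16 universal, 8 of 14 bacterial-type and 11 of 20 mitochondria-specific genes fell. Leaving aside members that share 10% or more of their exon bases with another gene, 31 of 60 fell.

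*Mrpl54* (ENSMUSG00000034932, chr10:81264713-81266934, minus strand), a mitochondria-specific protein of the large subunit, had the largest decrease. It measured 37.7, 39.7 and 43.8 CPM as the lowest, median and highest in IP control and 27.9, 30.8 and 31.8 CPM in IP ethanol. The 2 groups were far apart, and the log2 fold change was -0.40 ± 0.04 (SE, edgeR adjusted p = 3.19e-13), lower in 6 of 6 ethanol libraries than in any control library. In input it measured 49.1, 50.9 and 48.8 CPM in the control and 39.9, 42.1 and 39.4 CPM in the ethanol libraries. There too the groups did not overlap (-0.30 ± 0.03, adjusted p = 1.67e-15).

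*Mrps28* (ENSMUSG00000040269, chr3:8802146-8923918, minus strand), a bacterial-type protein of the small subunit, came next. In IP control its lowest, median and highest values were 12.9, 14.6 and 16.6 CPM, and in IP ethanol 10.1, 11.6 and 12.3 CPM. Relative to their mean, the IP control libraries were spread more widely than for *Mrpl54* (coefficient of variation 10.7% against 6.37%). They still all lay above those with ethanol (-0.36 ± 0.06, adjusted p = 0.000104). Input control libraries had 13.2, 14.2 and 13.4 CPM and input ethanol libraries 11.3, 12.1 and 11.5 CPM. The groups were again separate (-0.23 ± 0.06, adjusted p = 0.00215).

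*Mrps6* (chr16:92058270-92112227, plus strand) was the most abundant member per kb. Its lowest, median and highest values were 133, 140 and 146.7 CPM in IP control and 110, 113 and 115 CPM in IP ethanol. In input it measured 118, 114 and 113 CPM in control and 96.1, 95.9 and 96.9 CPM in ethanol libraries. All ethanol libraries lay well below all control libraries in either fraction, with log2 fold changes of -0.31 ± 0.02 (IP, adjusted p = 4.54e-15) and -0.26 ± 0.03 (input, adjusted p = 1.49e-21). The gene shares the start of its transcript with *Slc5a3*, the sodium/myo-inositol cotransporter gene, which begins at position 92058322 on the same strand. Of the exon bases of *Mrps6*, 10.4% are shared. *Slc5a3* went the other way: it measured 242, 254 and 273 CPM (lowest, median, highest) in IP control and 270, 295 and 344 CPM in IP ethanol. These groups overlapped by 1 ethanol library, and the log2 fold change was 0.23 ± 0.05 (adjusted p = 0.00692). In input *Slc5a3* had 200, 200 and 204 CPM in control and 242, 254 and 247 CPM in ethanol libraries (0.30 ± 0.02, adjusted p = 2.81e-34).

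**Figure D2:**
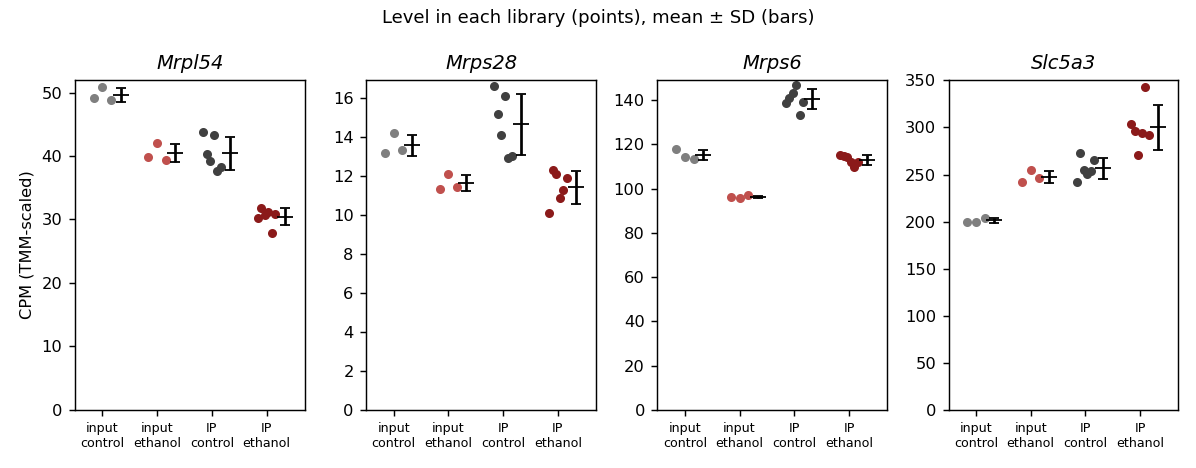
CPM (y axis, from 0) in each library (points) with the mean and SD of each group (bars) for *Mrpl54*, *Mrps28*, *Mrps6* and *Slc5a3* in input (n = 3) and IP (n = 6), control and ethanol. The ethanol libraries lie below the control libraries of the same fraction for the 3 mitoribosomal genes and higher on average for *Slc5a3*.

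Members of known extra roles or with paralogs varied. The 3 *Mrps18* paralogs encode different proteins, *Mrps18a* one of the large subunit and *Mrps18b* and *Mrps18c* ones of the small subunit. In IP, *Mrps18b* measured 10.2, 11.1 and 11.7 CPM (lowest, median, highest) in control and 8.86, 9.49 and 10.3 CPM in ethanol libraries (-0.21 ± 0.05, adjusted p = 0.000541). The groups overlapped at their ends only. Of the exon bases of *Mrps18b*, 30.5% lie opposite *Gm16279*, and its level in IP control was 5.31 CPM per kb without regard to strand and 9.37 with stranded counts. *Mrps18c* measured 5.97, 6.50 and 7.03 CPM in control and 5.14, 5.86 and 6.16 CPM in ethanol libraries (-0.18 ± 0.06, adjusted p = 0.0223). Of its exon bases 23.2% are shared with *Gm43511* on the same strand. The groups of *Mrps18c* overlapped, and the adjusted p was 0.0642 without IP control library 4, 0.0575 without IP ethanol library 3 and 0.0550 without IP ethanol library 5. *Mrps18a* was not called in IP, with a log2 fold change of -0.05 and a 95% confidence interval from -0.12 to 0.01. In input none of the 3 was called. There *Mrps18c* had 0.03 (95% interval -0.13 to 0.19), *Mrps18b* -0.12 ± 0.06 and *Mrps18a* -0.09 ± 0.03. Without input control library 4 *Mrps18b* had -0.20 (adjusted p = 0.0371). Without input ethanol library 6 *Mrps18a* had -0.12 (adjusted p = 0.0191). Against input, IP was lower for *Mrps18a* (-0.23 ± 0.03) and *Mrps18b* (-0.17 ± 0.04, adjusted p = 0.000511), and *Mrps18c* was not called (-0.06 ± 0.05).

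*Mrpl12* encodes the stalk protein that also binds the mitochondrial RNA polymerase. It measured 18.7, 19.5 and 20.4 CPM in IP control and 15.3, 17.8 and 19.4 CPM in IP ethanol as the lowest, median and highest values. The groups overlapped, and the decrease of -0.13 ± 0.04 (adjusted p = 0.0253) had an adjusted p of 0.0563 without IP control library 4, 0.133 without IP ethanol library 1 and 0.0691 without IP ethanol library 4. Of its exon bases 13.1% lie opposite *Gm16755*, and *Mrpl12* had 12.7 CPM per kb in IP control without regard to strand and 33.7 with stranded counts. *Mrpl58* encodes a peptidyl-tRNA hydrolase that rescues stalled mitoribosomes and is itself part of the large subunit. Its values were 23.0, 24.0 and 26.2 CPM in IP control and 20.0, 21.5 and 22.9 CPM in IP ethanol. No ethanol library reached the lowest control library (-0.16 ± 0.04, adjusted p = 0.00113). In input *Mrpl58* had 24.6, 25.4 and 25.1 CPM in control and 23.0, 23.3 and 22.4 CPM in ethanol libraries (-0.13 ± 0.05, adjusted p = 0.0294). That call was lost without input control library 5 (adjusted p = 0.126) or 6 (0.0790) and without input ethanol library 4 (0.0608) or 6 (0.102). For IP against input *Mrpl58* was not called (-0.07 ± 0.03, adjusted p = 0.0668), though it was without IP control library 2 (0.0491) or 4 (0.0266) or IP ethanol library 2 (0.0432) or 3 (0.0370).

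Among the most and least abundant members, *Mrpl34* was not called for ethanol in IP. It measured 35.2, 37.5 and 39.5 CPM in control and 33.4, 37.4 and 39.5 CPM in ethanol libraries (-0.03, 95% interval -0.10 to 0.04). *Mrps21* fell in IP by 0.10 on the log2 scale (adjusted p = 0.031), a call lost without IP control library 1 (0.0581), 3 (0.0687) or 4 (0.0727) or IP ethanol library 5 (0.0834). *Mrpl33* measured 16.3, 17.0 and 17.9 CPM in IP control and 13.0, 15.3 and 16.1 CPM in IP ethanol, without overlap (-0.18 ± 0.04, adjusted p = 0.000767). *Mrpl47* fell in IP (-0.13 ± 0.04, adjusted p = 0.0262), but not without IP ethanol library 4 (0.0734) or 5 (0.0819). Of the exon bases of *Mrpl47*, 24.2% lie opposite *Actl6a* and *Ndufb5*. *Mrps30*, also known as a pro-apoptotic protein, had -0.01 with a 95% interval from -0.08 to 0.07. For IP against input *Mrps30* was not called (0.07 ± 0.03), though it was without input ethanol library 4 (adjusted p = 0.0237) or IP control library 1 (0.0477) or 2 (0.0456).

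**Figure D3:**
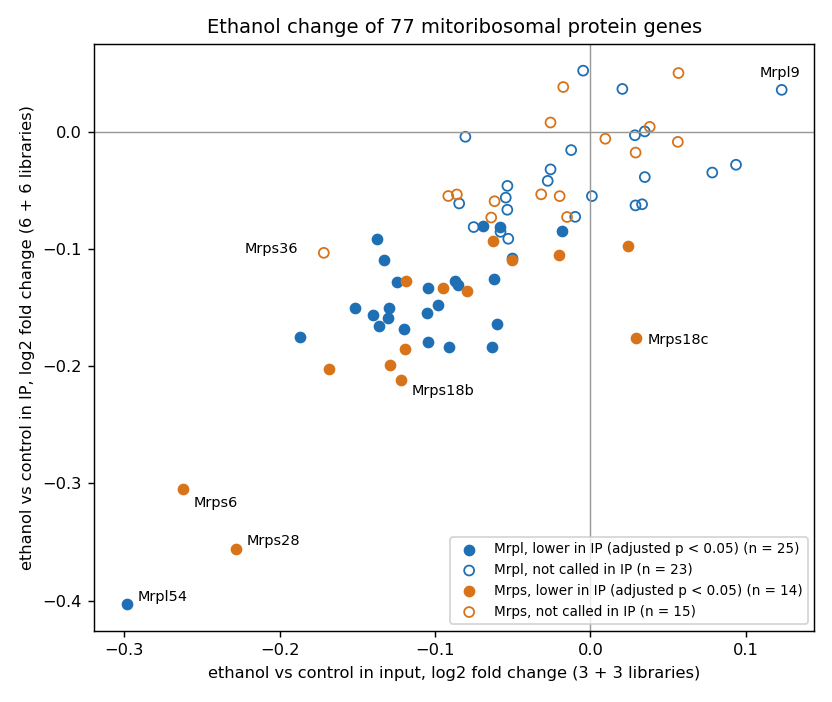
Log2 fold change of ethanol over control in input (x axis, 3 and 3 libraries) and in IP (y axis, 6 and 6 libraries) for the 77 genes tested; *Mrpl* genes in blue, *Mrps* genes in orange, filled where the gene fell in IP (25 and 14 genes). *Mrpl54*, *Mrps28* and *Mrps6* lie at the lower left, and *Mrpl9*, the gene that rose in input, at the upper right.

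In input, ethanol lowered *Mrpl54*, *Mrps6* and *Mrps28* among others and raised *Mrpl9*. Of 77 genes, 17 fell and 1 rose (adjusted p under 0.05, edgeR), where 7.78% of all genes tested fell and 7.21% rose, and 15.4% of the protein-coding genes of at least 5 CPM fell. With total counts 16 fell and 3 rose, where 6.95% of all genes fell and 8.21% rose. The median log2 fold change was -0.06, against -0.00 over all genes tested. By symbol 12 of 48 *Mrpl* and 5 of 29 *Mrps* genes fell, each with a median of -0.06. For 31 of 77 members all 3 ethanol libraries lay below all 3 control libraries, as for 13.1% of all genes. When tested against a fold change of 1.2, none was called in input by edgeR, with 0 at an unadjusted p under 0.05. The summed level of the members was 2770, 2780 and 2759 CPM in the control and 2680, 2654 and 2665 CPM in the ethanol libraries. Again no ethanol library reached a control library, and the mean changed by -3.73% (-3.34% for *Mrpl*, -4.48% for *Mrps* genes, -3.27% for the cytosolic ribosomal protein genes).

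*Mrpl9* (ENSMUSG00000028140, chr3:94443318-94451130), a bacterial-type protein of the large subunit, was the gene that rose in input. It measured 46.7, 46.8 and 46.3 CPM in the control and 50.6, 50.5 and 51.6 CPM in the ethanol libraries. The 2 groups were narrow and separate (0.12 ± 0.03, adjusted p = 0.00301). In IP its values overlapped, at 44.6, 48.5 and 50.2 CPM (lowest, median, highest) in control and 46.4, 49.3 and 51.1 CPM in ethanol libraries, with a log2 fold change of 0.04 (95% interval -0.03 to 0.10). *Mrpl30*, low in IP, was not called in input (0.08 ± 0.03, adjusted p = 0.0561), though it was without input control library 4 (adjusted p = 0.0352). *Mrpl41*, the member highest in IP against input, fell in both fractions. It had 27.3, 27.6 and 27.6 CPM in input control and 24.1, 24.4 and 24.3 CPM in input ethanol (-0.19 ± 0.04, edgeR adjusted p = 0.000332). The log2 fold change of *Mrpl41* in IP was -0.18 ± 0.04 (edgeR adjusted p = 0.000102). *Mrps36*, whose product is not a mitoribosome subunit, measured 14.1, 15.0 and 13.9 CPM in input control and 12.2, 13.4 and 12.7 CPM in input ethanol (-0.17 ± 0.06, adjusted p = 0.0268). That call was lost without input control library 5 (0.187) or input ethanol library 4 (0.166) or 6 (0.0617). In IP it was not called (-0.10 ± 0.05, adjusted p = 0.125), though it was without IP ethanol library 1 (0.0419).

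Whether the effect of ethanol differed between IP and input was tested directly. The edgeR interaction term called 0 of 77 members and 0.0% of all genes. At an unadjusted p under 0.05 there were 9 members and 1459 of all genes, and 6 members in DESeq2. DESeq2 gave an adjusted p to 25 of the 77 members only and called 0 of these; the other members, *Mrpl54*, *Mrps28* and *Mrps18c* among them, had none. The median difference over the members was -0.05, against -0.0002 over all genes tested and -0.001 over the protein-coding genes of at least 5 CPM. It was below 0 for 65 of 77 members and for 12263 of 24495 genes. The members were not tested as a set. The widest difference was that of *Mrps18c* at -0.22 (95% interval -0.42 to -0.02, adjusted p = 0.823). The IP libraries 4 to 6 and the input libraries come from the same dishes. IP libraries 1 to 3 share no dish with input. In those alone 20 members fell, of which 13 also fell in input, 65.0% of the 20 and 76.5% of the 17 that fell in input. Over all genes 5.60% fell in those IP libraries, of which 70.0% also fell in input, 50.4% of all that fell in input. For the protein-coding genes of at least 5 CPM these shares were 10.9%, 75.1% and 53.2%. The 13 included *Mrpl54*, *Mrps28*, *Mrps6*, *Mrpl38*, *Mrpl39*, *Mrpl41*, *Mrps14* and *Mrps16*.

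Subunits under other symbols were counted apart. In IP, *Chchd1* (-0.22 ± 0.04), *Aurkaip1* (-0.20 ± 0.03) and *Gadd45gip1* (-0.18 ± 0.04) fell, and *Ptcd3* (-0.08 ± 0.03) and *Dap3* (0.02 ± 0.03) were not called by edgeR. By DESeq2 4 of the 5 fell in IP, and also 4 with the filterByExpr filter and with stranded counts. In input *Aurkaip1* (-0.15 ± 0.03) and *Chchd1* (-0.13 ± 0.04) fell, 2 of 5.

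Other genes of mitochondrial gene expression had calls in both directions. For these and the following lists, the shares over all genes tested were 9.48% fallen and 11.9% risen in IP. In input they were 7.78% and 7.21%. Of the protein-coding genes of at least 5 CPM, 17.3% fell in IP and 15.4% in input. Of 24 assembly factors, 5 fell and 1 rose in IP (median 0.01) and none was called in input by edgeR or DESeq2, with 5 at an unadjusted p under 0.05 and 1 higher with total counts. The fallen ones included the rRNA methyltransferase gene *Mrm3* (-0.18 ± 0.05) and *Mettl17* (-0.15 ± 0.05). Of 14 translation factors, 2 fell and 1 rose in each fraction; in IP 4 fell by DESeq2 and 4 with the filterByExpr filter. *Gfm1* fell in IP (-0.10 ± 0.03) and in input (-0.14 ± 0.04), *Lrpprc* fell in IP (-0.10 ± 0.03), and *Oxa1l*, the insertase of the inner membrane, rose in input (0.12 ± 0.03). Of 17 tRNA synthetases, 3 fell and 2 rose in IP and 1 fell in input. *Sars2* (-0.25 ± 0.05) and *Mars2* (-0.17 ± 0.05) fell in IP and *Tars2* (-0.14 ± 0.04) in input. Of 6 transcription genes none was called in either fraction by edgeR, with 0 and 1 at an unadjusted p under 0.05 in IP and input, nor by DESeq2.

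The regulators of mitochondrial biogenesis had 2 higher and 2 lower of 8 in IP and none higher and 2 lower in input. *Pprc1*, a coactivator of nuclear genes for mitochondria, fell in IP (-0.21 ± 0.04) and input (-0.24 ± 0.04), as did *Myc* (-0.17 ± 0.04 and -0.21 ± 0.04). With total counts 1 of the 8 was higher in input. Of the 13 mitochondrial mRNAs, 6 rose in input, among them the sparsely counted *mt-Co3* (0.31 ± 0.09) and *mt-Atp6* (0.29 ± 0.09). By DESeq2 4 rose in input, and 4 with the filterByExpr filter. In IP none was called by edgeR, with 3 at an unadjusted p under 0.05. There 2 were lower by DESeq2 and 1 when all genes with at least 1 read pair were tested. Of 81 cytosolic ribosomal protein genes, 53 fell in IP (median -0.11) and 31 in input (median -0.05) and none rose, with *Rpl13a* at -0.20 ± 0.04 in IP and -0.16 ± 0.04 in input, *Rpl35* at -0.19 ± 0.03 in IP and *Rpl23a* at -0.19 ± 0.05 in input.

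Marker lists had calls with ethanol as well, and of these lists only that of the proliferation genes was called in full. All 10 proliferation genes fell in both fractions (median -0.26 in IP and -0.39 in input), for example *Mcm5* and *Mcm3* (each -0.41 ± 0.04 in IP) and *Mki67* (-0.57 ± 0.06) and *Top2a* (-0.53 ± 0.05) in input. Their sum was 223 ± 6.99 CPM in IP control and 183 ± 4.46 in IP ethanol (SD, n = 6), and 217 ± 1.56 in input control and 168.2 ± 5.59 in input ethanol (SD, n = 3), with *Pcna* the most abundant at 55.0 CPM and none at 0. Of 9 endothelial and mural markers tested of 10, 3 fell in each fraction. These include *Acta2* (-0.56 ± 0.04 in IP, -0.59 ± 0.02 in input), the most abundant at 1215 CPM, and *Tagln* (-0.51 ± 0.06 and -0.52 ± 0.10), and *Cldn5* was listed at 0. That list summed to 1705 ± 55.8 CPM in IP control, 1180 ± 68.4 in IP ethanol, 1341 ± 35.2 in input control and 941 ± 34.5 in input ethanol. The part of either list in the lower mitoribosomal levels was not tested.

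Of the microglial markers, 2 of 10 rose in IP (*Csf1r* 0.33 ± 0.07, *Cd68* 0.23 ± 0.04) and 3 in input (*Ptprc* 0.26 ± 0.08, *Csf1r* 0.22 ± 0.04). They summed to 35.3 ± 1.30 CPM in IP ethanol (SD, n = 6) and 131 ± 10.3 in input ethanol (SD, n = 3). Input ethanol library 4 stood apart at 143.1 CPM, with 125.1 and 125.5 in libraries 5 and 6. The input control libraries had 120.9 to 122.6 CPM. Oligodendrocyte lineage markers had 2 risen in IP and 3 in input of 10 (*Pdgfra* 0.47 ± 0.09 and 0.56 ± 0.15, *Cspg4* 0.29 ± 0.04 in IP, *Mbp* 0.30 ± 0.10 in input). Their sum was 158 ± 2.75 CPM in IP control, 167.9 ± 6.24 in IP ethanol, 116 ± 2.25 in input control and 120 ± 4.83 in input ethanol, with *Cnp* the most abundant at 122 CPM and none at 0. Of the neuronal markers 1 of 10 fell in IP, *Stmn2* (-0.18 ± 0.03), and in input 1 fell, *Stmn2* (-0.13 ± 0.03), and 1 rose, *Slc17a7* (0.98 ± 0.33). *Stmn2* was the most abundant at 95.9 CPM, none was at 0, and the sums were 145.7 ± 3.19, 132 ± 2.60, 118 ± 1.38 and 109 ± 2.93 CPM in IP control, IP ethanol, input control and input ethanol. Of the fibroblast markers 1 rose (*Pdgfrl* 0.16 ± 0.03 in IP) and 1 fell (*Postn* -0.32 ± 0.08 in IP) in each fraction. *Fn1* was the most abundant at 1641 CPM, none was at 0, and the sums were 1714 ± 13.0, 1707 ± 81.3, 2074 ± 30.6 and 2036 ± 66.3 CPM in the same order. Of the astrocyte markers 4 rose and 1 fell in IP and 4 rose and 4 fell in input, with *Aqp4* at 0.25 ± 0.02 and *Slc1a3* at 0.23 ± 0.02 in IP and *Slc1a2* at 0.17 ± 0.03 and *Slc1a3* at 0.16 ± 0.02 in input. *Aldh1l1* fell in input (-0.13 ± 0.02, adjusted p = 9.38e-07) and was not called in IP (-0.06 ± 0.02, adjusted p = 0.0934). The 10 markers summed to 2512 ± 36.4 CPM in IP ethanol and 1572 ± 20.1 in input ethanol, with *Glul* the most abundant at 561 CPM. What these lists contribute to the mitoribosomal values was not tested.

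As many members moved together, their promoters were searched for short motifs, on both strands, in the RefSeq sequence from 250 bases before to 50 after the start. Of the 77 genes tested, 68 had an entry in the table. *Mrpl4*, *Mrpl13*, *Mrpl15*, *Mrpl19*, *Mrpl38*, *Mrpl54*, *Mrps28*, *Mrps34* and *Mrps35* did not. The NRF1 core GCGCATGC was found in 8 of 68 (11.8%), against 3.05% of the promoters of all 27025 genes in the table. The ETS core CCGGAAG was found in 25 (36.8%, against 9.93%) and the YY1 core AAGATGGC in 12 (17.6%, against 3.19%). The SP1 box GGGCGG was found in 34 (50.0%, against 38.2%) and the E-box CACGTG in 5 (7.35%, against 8.09%). Among the 34 of these genes that fell with ethanol in IP the NRF1, ETS, YY1, SP1 and E-box letters were found in 4, 15, 5, 18 and 4, and among the 34 others in 4, 10, 7, 16 and 1. By symbol the ETS core was in 14 of 42 *Mrpl* and 11 of 26 *Mrps* promoters, and the NRF1 core in 7 and 1. Such a match is a description of the letters only.

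The promoters of *Mrps6* and *Mrps14* are shown because they belong to the members with the largest ethanol decrease in IP that had a promoter entry with at least 100 bases outside annotated exons. *Mrps18b*, which would have come between them, was passed over since its window holds an exon of a neighbouring gene, a choice made after the data were seen. *Mrps14*, the counterpart of a universal small subunit protein, measured 40.3, 41.6 and 43.4 CPM (lowest, median, highest) in IP control and 35.1, 36.0 and 38.1 CPM in IP ethanol, without overlap (-0.20 ± 0.03, adjusted p = 8.51e-07). The *Mrps6* stretch is chr16:92058086-92058269 (184 bases) and that of *Mrps14* chr1:160194965-160195214 (250 bases), both upstream of the first exon on the plus strand of GRCm38.p6, from RefSeq. Capitals mark GGGCGG or its reverse complement CCGCCC, found 4 times in *Mrps6*, where the first pair overlaps, and 3 times in *Mrps14*; none of the other 4 motifs is in either stretch.
Mrps6: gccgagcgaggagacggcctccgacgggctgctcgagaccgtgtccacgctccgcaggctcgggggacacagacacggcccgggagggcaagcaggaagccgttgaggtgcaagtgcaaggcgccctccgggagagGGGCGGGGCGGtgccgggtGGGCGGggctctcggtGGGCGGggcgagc
Mrps14: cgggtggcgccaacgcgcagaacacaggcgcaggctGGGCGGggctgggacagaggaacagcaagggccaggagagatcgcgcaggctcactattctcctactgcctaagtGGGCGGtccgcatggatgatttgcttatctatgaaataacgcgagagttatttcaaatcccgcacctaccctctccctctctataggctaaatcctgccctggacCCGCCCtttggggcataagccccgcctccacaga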

How the data were processed

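Libraries of 12 IP and 6 input samples were grouped by fraction and treatment as their titles state. The authors trimmed reads with Trimmomatic, aligned them with STAR to GRCm38 with Ensembl annotation and deposited raw counts of read pairs per gene, without regard to strand; versions and the Ensembl release are not given in the sources used here. Pairs on several places, on no gene or on bases of 2 genes are in no gene's count; the last were 5.37% to 5.66% of pairs. Kits that mark strand allow stranded counts, used as an alternative.

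CPM, log2 fold changes and tests were computed from these counts in R 4.3.3 with edgeR 4.0.16 (TMM, robust quasi-likelihood test, Benjamini-Hochberg over all 24495 genes with at least 10 read pairs over 18 libraries, threshold 0.05). IP was compared with input over the 18 libraries, with treatment as a second term, ethanol with control within each fraction, and the difference of the ethanol effects by an interaction term. DESeq2 1.42.0 was an alternative. The tests were tried on simulated data. Exon lengths, overlaps and structural classes of members came from GENCODE M21 and a hand-written table.

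Named members were the 3 with the largest called increase and decrease of each comparison (mean of at least 5 CPM), the 3 highest and 3 lowest per kb in IP control, *Mrps18a*, *Mrps18b*, *Mrps18c*, *Mrps30*, *Mrps36*, *Mrpl12* and *Mrpl58*, and in each related list the 2 largest called changes, together with all subunits under other symbols, *Aldh1l1* and *Rpl10a*. Lists covered subunits under other symbols, assembly, translation factors, tRNA synthetases, transcription, biogenesis regulators, mitochondrial mRNAs, cytosolic ribosomal proteins, proliferation, and markers of astrocytes, microglia, neurons, oligodendrocyte lineage, endothelial and mural cells and fibroblasts. Members and lists were chosen with earlier results of these data known, so no list was tested as a set.

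IP and input of dishes 4 to 6 come from the same dish, which pairs them (correlation of deviations 0.022 to 0.147). Other alternatives were scaling, low-count filters, stranded counts, a fold of 1.2, subsets of dishes, removal of trends with GC content and length, other lengths and each library left out.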

Additional observations from a re-analysis of the deposited data

Results flagged for a closer look

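In groups of 6 libraries, 1 value was set apart from the others by more than a gap test allows at its 95% level for 3 quantities out of 50 tests of a group; chance flags about 1 in 20 groups. *Mrps18a* measured 42.5 CPM in IP control library 1, and 38.6 to 39.9 CPM in the other 5. The summed level of all members was 2453 CPM in IP ethanol library 5, and 2570 to 2627 CPM in the other ethanol libraries. The sum of the *Mrpl* genes was 1621 CPM in that same library, and 1701 to 1747 CPM in the others. Without IP ethanol library 5, 29 members fell with ethanol in IP in place of 39.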

How the results depend on the processing

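Tested against a fold change of 1.2, the called members numbered 7 for IP against input, 1 for ethanol in IP and 0 for ethanol in input. No share over all genes is given for this test. With IP replicates 1 to 3 alone 20 members were called for ethanol, and with replicates 4 to 6 alone 29; fewer libraries entered these fits. The ratio of the large to the small subunit median in IP control was 1.80 by structure, 1.46 with the longest transcript and, chosen after seeing the data, 1.74 with stranded counts; the cause was not tested. With GC content and length trends removed, 28 members fell and 2 rose in IP, with a median of -0.05. No share over all genes is given for that fit. Each other setting left the number of called members within 1.5 times that reported, and no named member called in the reported fit changed direction. Some lost their call. For ethanol in IP, 4 of the 21 named members did so with these trends removed. With IP replicates 4 to 6 alone 3 did, and with replicates 1 to 3 alone 7. In input 1 lost and 1 gained a call with the trends removed.

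With 1 library left out at a time, called members ranged from 50 to 53 for IP against input, 29 to 40 for ethanol in IP, 14 to 17 for ethanol in input and 0 to 0 for the interaction.

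With the dish as a block, 50 members were called for IP against input and 0 for the interaction. Across treatments the same number names different dishes. Same-numbered libraries had correlations of deviations from -0.103 to 0.224 in IP and 0.017 to 0.063 in input. As libraries of the same dish had 0.022 to 0.147, these values cannot tell whether a number stands for a shared source. With the number as a block 40 members were called in IP and 20 in input.

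Members sharing exon bases with another gene are less certain, since shared pairs were left uncounted. In IP control *Mrps34*, named after seeing its values, had 6.11 CPM per kb without regard to strand and 23.9 with stranded counts, *Mrpl12* had 12.7 and 33.7, and *Mrpl53* was at 0 with either.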
